A study of Mus musculus with 6 samples.

Results

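Endothelial cells line blood vessels, and the 10 mRNAs described here, Cdh5, Cldn5, Esam, Emcn, Flt1, Kdr, Tek, Pecam1, Tie1 and Eng, are those by which they are usually recognised. The genes were chosen by name, and all 10 were found by symbol among the 22048 genes of the table. RNA was sequenced from 6 samples of mouse neurospheres, which are floating clusters grown from neural stem/progenitor cells (NSC/NPCs) of the fetal hypothalamus in medium with EGF and bFGF. In the 3 HE samples the C57BL/6 dams, 8 weeks old, had been given 100 μg/kg/d estradiol valerate by gavage between E5.5 and E11.5, and in the 3 NC samples they had been given corn oil, although the treatment label of NC reads untreated. Cells came from male fetuses at E14.5, each sample pooled cells of 2 mice, and RNA was taken at the first passage. No sort for or against vessel cells is described, so any vessel cell that was dissected with the hypothalamus and survived in culture could have contributed RNA.

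In a vessel, these genes divide the work between junctions, growth factor receptors and surface glycoproteins. Cdh5 (VE-cadherin) holds neighbouring endothelial cells together at adherens junctions, Cldn5 seals the tight junctions of brain vessels, and Esam and Pecam1 are immunoglobulin-like adhesion proteins that platelets or leukocytes also carry. Flt1 and Kdr are receptors for vascular endothelial growth factors (VEGFs), Tek and Tie1 form the angiopoietin receptor system, Eng is a co-receptor for TGF-β family ligands, and Emcn is a sialomucin of the vessel surface. None of them is a gene by which NSC/NPCs are defined, but Flt1, Kdr and Eng are not restricted to endothelium.

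The samples were sequenced to a like depth, with 16078675 to 19137059 reads counted on genes. A read on a gene of 1 kilobase was then worth 0.0523 to 0.0622 RPKM (reads per kilobase of gene length and per 1000000 counted reads), the level scale used below. HE3 stood apart from the other libraries. The chi-square per gene between the read counts of 2 libraries, which is near 1 for sampling noise, was 86.5 for HE1 against HE3 and 81.7 for HE2 against HE3, but 15.6 for HE1 against HE2 and 21.6 to 45.6 among the NC samples, so no pair looked like a single library deposited again. The progenitor markers Vim and Sox2 were at 1230 to 1800 RPKM and 97.3 to 209 RPKM, whereas the endothelial markers Cldn5, Tie1, Emcn, Sox17 and Myct1 had 0 to 8 reads per sample. Other endothelial markers gave more reads, such as Plvap with 126 to 298 and Egfl7 with 67 to 154 per sample. The genes are described here as mRNAs and not as a population of endothelial cells. Values without HE3 are given beside many of the results that it changed, but not beside every value. Where none is given, HE3 could still have had an effect.

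At this depth the endothelial genes fell into 2 classes. Cdh5, Esam, Flt1, Kdr and Eng had at least 17 reads in every sample and passed the filter on low counts, whereas Cldn5, Emcn, Tek, Pecam1 and Tie1 had between 0 and 17 reads in every sample and did not. Of the latter, Emcn had 5 reads over all 6 samples, Cldn5 had 15 and Tie1 had 16. The most abundant member, Flt1, was at the 25.1 percentile of the mean RPKM of all tested genes, so even this gene was less abundant than most genes tested.

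ETS transcription factors, which bind DNA at a GGAA core, drive many endothelial genes, and the letters around the start sites of 3 members are shown for this reason. Flt1 was the member with the highest mean level, Kdr is the other VEGF receptor, and Emcn was the member with the fewest reads. Each line gives the 300 bases of RefSeq around a start site in GRCm38.p6, most of them before it, 5′ to 3′ on the strand of the gene, and capitals mark GGAA or its reverse complement TTCC. The start sites used for all 3 lie inside the annotated span of the gene, so the windows of Flt1 and Kdr are not the sequence before its outermost start.
Flt1, chr5:147725962-147726261, minus strand: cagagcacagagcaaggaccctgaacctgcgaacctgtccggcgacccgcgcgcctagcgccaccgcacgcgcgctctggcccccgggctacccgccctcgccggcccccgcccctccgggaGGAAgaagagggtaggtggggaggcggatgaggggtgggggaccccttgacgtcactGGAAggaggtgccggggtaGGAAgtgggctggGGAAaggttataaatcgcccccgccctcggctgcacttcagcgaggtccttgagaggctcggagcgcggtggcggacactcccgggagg
Kdr, chr5:75978406-75978705, minus strand: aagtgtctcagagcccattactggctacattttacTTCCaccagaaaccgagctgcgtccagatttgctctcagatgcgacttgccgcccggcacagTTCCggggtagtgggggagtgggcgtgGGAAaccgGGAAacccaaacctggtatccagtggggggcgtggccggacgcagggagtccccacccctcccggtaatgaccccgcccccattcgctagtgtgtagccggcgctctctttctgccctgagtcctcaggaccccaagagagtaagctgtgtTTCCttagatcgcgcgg
Emcn, chr3:137340828-137341127, plus strand: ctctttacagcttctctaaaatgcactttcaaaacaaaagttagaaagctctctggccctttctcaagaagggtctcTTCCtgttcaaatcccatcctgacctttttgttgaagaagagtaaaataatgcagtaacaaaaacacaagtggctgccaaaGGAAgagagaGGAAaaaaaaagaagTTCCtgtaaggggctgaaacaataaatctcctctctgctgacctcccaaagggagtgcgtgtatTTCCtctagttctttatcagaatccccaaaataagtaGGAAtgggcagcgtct

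On both strands, GGAA occurred 4 times in the window of Flt1, 5 times in that of Kdr and 6 times in that of Emcn, so the gene with the fewest reads had no fewer matches than the most abundant one. A match was found in 96% of all 32851 promoter windows of this length, with a median of 3, so its presence sets none of these genes apart. Of the other members with an entry, Tie1 held 9 matches, Eng 4 and Tek 2, and Cldn5 held 0. The longer core CCGGAA, which includes GGAA, was found in the window of Kdr and in 14.9% of all windows. Cdh5, Esam and Pecam1 have no entry.

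Among the 5 genes tested, Cdh5 had the largest fitted difference between the groups, except with sample weights, where that of Esam was larger. This gene (ENSMUSG00000031871, chromosome 8 from 104101613 to 104144504 in GRCm38.p6, protein-coding) had 53, 26 and 57 reads in NC1, NC2 and NC3 against 196, 126 and 125 reads in HE1, HE2 and HE3. Its levels were 0.708, 0.341 and 0.755 RPKM in NC against 2.75, 1.66 and 1.95 RPKM in HE, and the groups did not overlap. Counting error was smaller than this gap, since the exact Poisson 95% interval of the highest NC sample ended at 0.978 RPKM and that of the lowest HE sample began at 1.38 RPKM. The mean was 0.601 ± 0.227 RPKM in NC against 2.12 ± 0.563 RPKM in HE (SD, n = 3 each), which is 3.52-fold higher in HE. On the log2(RPKM + 0.1) scale, which understates changes of low mRNAs, the fold change was 1.69 (standard error, SE, 0.32, unadjusted p = 0.00102, adjusted p = 0.195 in limma), so it did not pass the adjusted threshold of 0.05. In bulk RNA, more cells of a type and more RNA per cell cannot be told apart.

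Of the other junction genes, Esam was at a level that overlapped Cdh5 in NC, and Cldn5 and Pecam1 were much lower. Esam (chromosome 9 from 37528089 to 37538319) had 17, 21 and 23 reads in NC and 49, 82 and 24 reads in HE. This corresponds to 0.316, 0.383 and 0.423 RPKM against 0.955, 1.50 and 0.521 RPKM. All HE samples lay above all NC samples, but HE3 by only 1 read over NC3, before scaling for depth. The log2 fold change of Esam was 1.11 (SE 0.35, unadjusted p = 0.0157, adjusted p = 0.195 in limma), and without HE3 it was 1.46 (unadjusted p = 0.000738, adjusted p = 0.12). Without NC1 the unadjusted p-value of Esam was 0.0517. Esam was thus higher in HE by the sample values and did not pass the adjusted test either.

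Cldn5 and Pecam1 did not give enough reads for such a comparison. Cldn5, the claudin of the blood-brain barrier, had 1 read in each NC sample and 1, 5 and 6 reads in HE1, HE2 and HE3. The RPKM of HE1 exceeded that of the NC samples through library size alone, and a single read has an exact Poisson 95% interval of 0.0253 to 5.57 reads. In a fit with no filter, the log2 fold change of Cldn5 was 0.83 (unadjusted p = 0.0489, adjusted p = 0.31 in limma). Pecam1 (CD31) had 6, 4 and 10 reads in NC and 3, 12 and 17 reads in HE, and the groups overlapped, with HE1 the lowest of all samples. Thus the cadherin of endothelial junctions was at 1.66 to 2.75 RPKM in the HE samples in which the claudin was at 0.0395 to 0.264 RPKM and Pecam1 at 0.0269 to 0.170 RPKM.

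**Figure D1:**
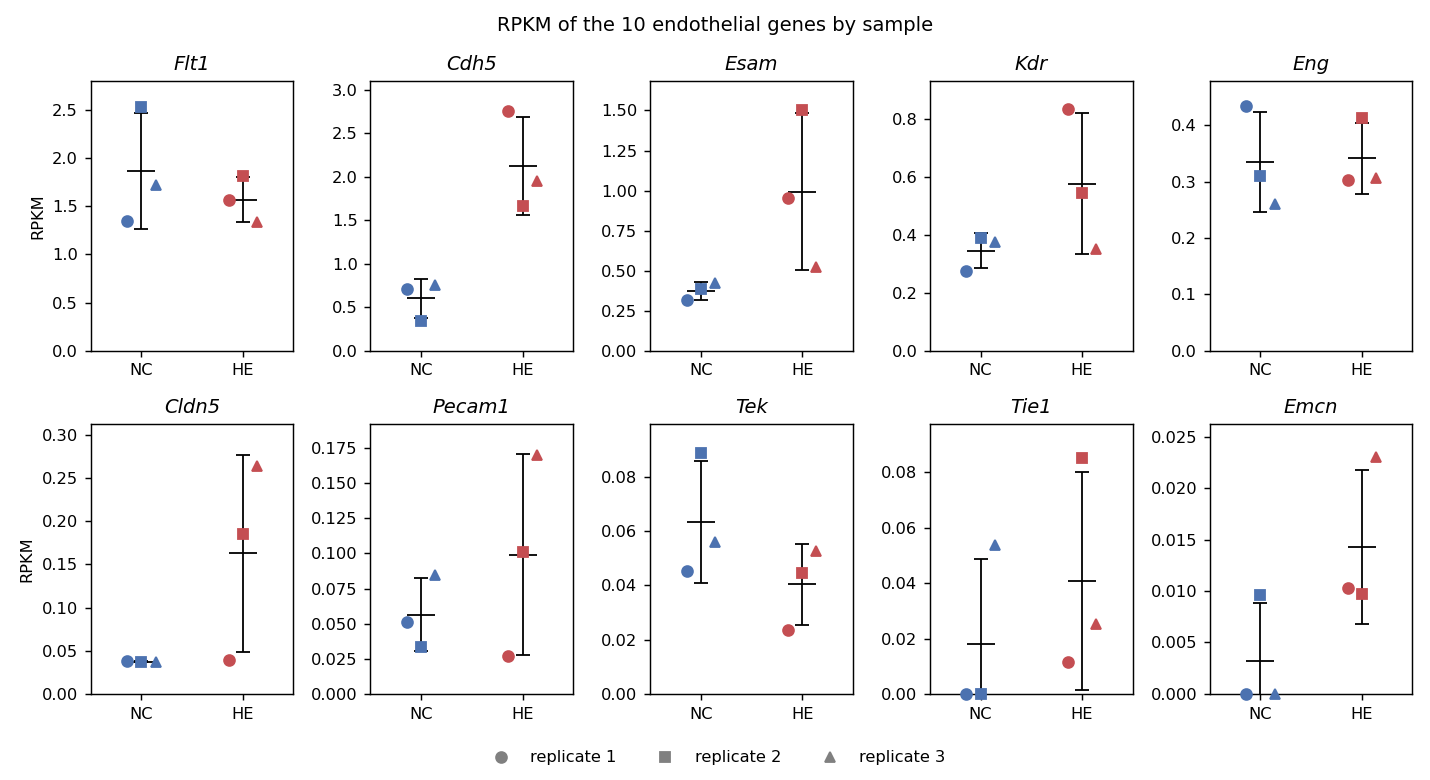
RPKM of each of the 10 endothelial genes in the 3 NC (blue) and 3 HE (red) samples, with the replicate number by symbol and the mean ± SD as a bar, each panel on its own linear axis from 0. Cdh5 lay at 0.341 to 0.755 RPKM in NC against 1.66 to 2.75 RPKM in HE, Flt1 and Eng overlapped between the groups, and the panels of Cldn5, Pecam1, Tek, Tie1 and Emcn rest on 0 to 17 reads per sample.

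The VEGF receptors differed less between the groups than Cdh5. Flt1 (chromosome 5 from 147561604 to 147726438) carried 343, 654 and 440 reads in NC and 378, 466 and 290 reads in HE, which is 1.35, 2.53 and 1.72 RPKM against 1.56, 1.81 and 1.34 RPKM. All 3 HE samples lay within or just below the NC range, and the log2 fold change was -0.20 with a 95% interval of -0.80 to 0.40 (unadjusted p = 0.451, adjusted p = 0.642 in limma). A gain of the size fitted for Cdh5 lies outside this interval. Flt1 also makes a soluble receptor form that lacks the membrane part, and counts per gene do not separate it from the full receptor.

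Kdr, the main signaling receptor of VEGF-A (chromosome 5 from 75932827 to 75979072), had 47, 67 and 64 reads in NC and 135, 94 and 51 reads in HE. Its levels were 0.277, 0.388 and 0.374 RPKM in NC against 0.835, 0.546 and 0.351 RPKM in HE. HE1 and HE2 were above every NC sample, whereas HE3 fell between them. The log2 fold change was 0.55 with a 95% interval of -0.17 to 1.26 (unadjusted p = 0.114, adjusted p = 0.317 in limma). Single libraries moved this value, which was 0.81 without HE3 (unadjusted p = 0.0154, adjusted p = 0.178) and 0.28 without HE1.

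The angiopoietin receptors were close to the detection limit. Tek had 4, 8 and 5 reads in NC and 2, 4 and 4 reads in HE, and Tie1 had 0, 0 and 5 reads in NC and 1, 8 and 2 reads in HE. For Tie1 a count of 0 allows up to 0.0325 RPKM in NC1 and 0.0319 RPKM in NC2 (3 reads), so a level equal to that of HE1 or HE3, 0.0114 and 0.0253 RPKM, could not be told from 0. No difference was detectable for either gene at this depth. These floors and intervals cover counting error only.

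Of the remaining surface proteins, Eng (endoglin, chromosome 2 from 32646595 to 32682669) had almost the same level in both groups. It had 33, 24 and 20 reads in NC and 22, 32 and 20 reads in HE. The means were 0.335 ± 0.0895 and 0.342 ± 0.063 RPKM (SD, n = 3 each), and the log2 fold change was 0.03 with a 95% interval of -0.54 to 0.60 (adjusted p = 0.941 in limma). Emcn had 0, 1 and 0 reads in NC and 1, 1 and 2 reads in HE, which is too little for any comparison.

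In limma, 0 of 13952 tested genes (0%) passed the adjusted threshold of 0.05 with a fold change of at least 1 on the log2 scale either way, the smallest adjusted p being 0.148. Unadjusted, 2858 genes had p below 0.05, with 8.68% of the tested genes higher and 11.8% lower in HE. Of the 5 endothelial genes tested, 2 were higher at this level (Cdh5 and Esam) and 0 lower. In both, every HE value exceeded every NC value, which held for 14.8% of tested genes, and in 0 of the 5 was every HE value below every NC value, which held for 17.9%. The median log2 fold change of the 5 tested genes was 0.55, against -0.059 for all tested genes, and 4 of them were above 0, against 43.8% of tested genes. Without HE3 their median was 0.81 and 3 of them (Cdh5, Esam and Kdr) were higher with unadjusted p below 0.05, against 9.35% of tested genes, and without NC1 only Cdh5 was. Among the 10 members, with no filter, 4 had all HE values above NC by RPKM, against 11.9% of genes with at least 1 read, but for Cldn5 and Emcn this order rested on libraries with 1 read in either group. With no filter 3 of the 10 (Cdh5, Esam and Cldn5) were higher at this level, against 6.96% of genes with at least 1 read. The exact permutation test of the RPKM means (two-sided, 20 assignments) gave p = 0.1, the smallest p that 3 against 3 samples allow, for Cdh5, Esam, Cldn5 and Emcn, and 0.2 to 1 for the others (0.25 to 1 adjusted over the 10 genes).

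**Figure D2:**
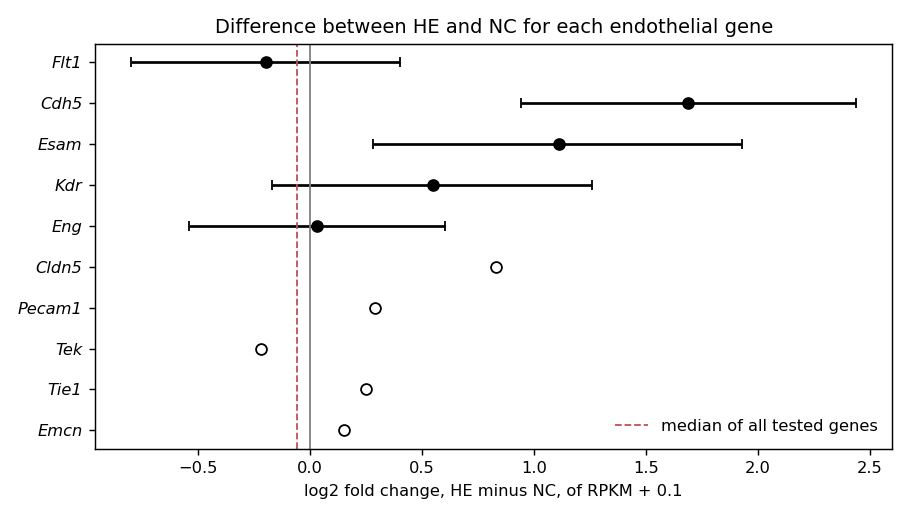
Log2 fold change of RPKM + 0.1, HE minus NC, for each endothelial gene in order of mean level. Filled points with 95% intervals are the 5 genes tested, open points without intervals are the 5 genes below the filter, and the dashed line is the median of all tested genes at -0.059. The intervals of Cdh5 (0.94 to 2.44) and Esam (0.28 to 1.93) lie above 0, and those of Kdr, Eng and Flt1 include it.

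The order of levels, which RPKM allows because it is per length, also differed between the groups. In NC, Flt1 was highest at 1.87 RPKM, above Cdh5 at 0.601 RPKM without overlap of their ranges. Cdh5, Esam, Kdr and Eng followed with each overlapping the next, and Tek, Pecam1, Cldn5, Tie1 and Emcn stood apart below Eng at 0.00322 to 0.0633 RPKM. In HE, Cdh5 came first at 2.12 RPKM, overlapping Flt1 at 1.57 RPKM, and Flt1 overlapped Esam. Within a sample, the ratio of Cdh5 to Flt1 was 0.523, 0.135 and 0.439 in NC1, NC2 and NC3 and 1.76, 0.916 and 1.46 in HE1, HE2 and HE3. The low members again lay below Eng, with Cldn5 at 0.163 RPKM the highest of them.

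Summed over the 10 genes, the reads were 504, 806 and 625 in NC and 788, 830 and 541 in HE, or 26.9, 42.1 and 33.0 RPM in NC (RPKM without the division by length) and 44.0, 43.5 and 33.6 in HE. Flt1 made up 68.1% to 81.1% of these reads in NC and 48.0% to 56.1% in HE, so that the sum mostly followed Flt1 in NC. Without Flt1 the sum was 7.94 to 9.77 RPM in NC and 15.6 to 22.9 in HE. Without Flt1 and Cdh5, the other 8 genes gave 108, 126 and 128 reads in NC and 214, 238 and 126 reads in HE, or 5.75 to 6.76 RPM in NC and 7.84 RPM in HE3, so that HE3 lay near the NC samples once Cdh5 was removed. The 5 genes below the filter gave 11, 14 and 21 reads in NC and 8, 30 and 31 in HE together, and these overlapped.

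**Figure D3:**
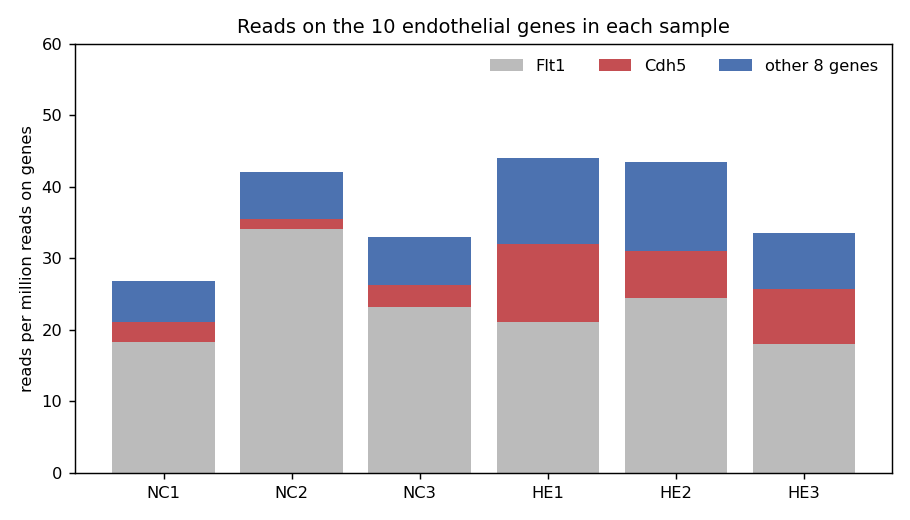
RPM (reads per 1000000 reads on genes) of the 10 endothelial genes in each sample, stacked as Flt1 (grey), Cdh5 (red) and the other 8 genes (blue). The whole bars overlap between the groups (26.9 to 42.1 in NC, 33.6 to 44.0 in HE), and the red part is larger in every HE sample than in every NC sample.

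Across the 6 samples, the 5 tested genes did not vary as a unit. Pearson's r of log2(RPKM + 0.1) was 0.70 between Cdh5 and Esam, 0.78 between Esam and Kdr and 0.65 between Cdh5 and Kdr, but -0.59 between Cdh5 and Flt1 and 0.01 between Cdh5 and Eng. These describe 6 samples from 2 groups and carry no test. The genes most like the mean standardised profile of the 5, out of all tested genes, were Hus1 (r = 0.999), a DNA damage checkpoint clamp subunit, Mid1ip1 (0.996), Trmt11 (0.992), Ldlrad3 (0.979) and Arhgap20 (0.979). None of these 5 was on a list of endothelial genes. They were sought among 13952 genes over 6 samples and are given as a description, with no test.

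The other genes of the endothelial programme were taken from lists of genes grouped by function. Beside their counts stand the shares over all tested genes with unadjusted p below 0.05, 8.68% higher and 11.8% lower in HE. Without HE3 these shares were 9.35% and 10.5%. Of 20 transcription factors of endothelial and blood vessel development, 13 were tested, 2 were higher and 2 lower in HE with unadjusted p below 0.05, and the median log2 fold change was -0.05. The higher ones were Fli1 and Ets1 and the lower ones Etv6 and Sox7, and none had an adjusted p-value under 0.195. Of these, Fli1, Ets1 and Etv6 are ETS factors, so this family went both ways. The tested ETS factors Erg, Ets2 and Elk3 had log2 fold changes of -0.05, -0.21 and -0.11. Fli1 was at 0.0764, 0.165 and 0.0606 RPKM in NC against 0.288, 0.271 and 0.517 RPKM in HE, a log2 fold change of 1.19 (adjusted p = 0.195 in limma). With 5, 11 and 4 reads in NC against 18, 18 and 29 in HE, Fli1 passed the filter only through HE, where it was higher. Fli1 is also expressed in blood cells, and its level, like that of Cdh5, was low in both groups. Sox7, a SoxF factor of early endothelium, was lower in HE, with 6.32, 2.57 and 4.64 RPKM in NC against 1.96, 0.541 and 0.735 RPKM in HE and a log2 fold change of -2.07 (SE 0.49, adjusted p = 0.195). The related factor Sox17 had 0 reads in all 6 samples. Ets2, the most abundant of the list, was at 10.4 ± 2.05 RPKM in NC against 8.96 ± 1.19 RPKM in HE (SD, n = 3 each). Without HE3, 4 of the factors were higher and 2 lower with unadjusted p below 0.05, and their median log2 fold change was 0.09.

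The ligands of these receptors ranged widely in level. At the low end, Gdf2 and Bmp10, ligands of the Eng receptor complex, had 0 to 2 reads per sample, and Vegfd, Tgfb1, Angpt4 and Vegfc had mean levels of 0.0557, 0.23, 0.443 and 0.843 RPKM. Vegfa, the ligand of Flt1 and Kdr, was at 398, 408 and 436 RPKM in NC and at 364, 430 and 33.6 RPKM in HE. The low value belonged to HE3 alone, so the log2 fold change of -1.25 (adjusted p = 0.415 in limma) became -0.06 without HE3. Pgf, which binds Flt1, was at 21.8, 42.6 and 22.7 RPKM in NC against 25.8, 23.3 and 10.8 RPKM in HE, and the angiopoietin Angpt2 at 29.3 ± 13.2 and 33.0 ± 10.6 RPKM (SD, n = 3 each). Both overlapped between the groups. All ligands named here but Vegfa were chosen after their values were seen.

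Among 19 ligands, co-receptors and partners, 16 were tested, 3 were higher (Nrp1, Nrp2 and Angpt4) and 3 lower (Vegfb, Tgfb3 and Flt4) with unadjusted p below 0.05, and 0 passed the adjusted threshold. Angpt4, with 7, 9 and 16 reads in NC against 43, 13 and 23 in HE, passed the filter only through HE. The median log2 fold change was -0.01. Over all tested genes, 8.68% were higher and 11.8% lower with unadjusted p below 0.05. Without HE3, 3 of the list were higher (Nrp1, Nrp2 and Acvrl1) and 2 lower (Vegfb and Flt4) at this level, against 9.35% and 10.5% of all tested genes. The neuropilins are VEGF co-receptors that axons and neural cells also carry. Nrp2 was at 1.85, 1.58 and 2.86 RPKM in NC against 4.39, 4.63 and 5.76 RPKM in HE, a log2 fold change of 1.23 (SE 0.24, adjusted p = 0.195). Nrp1 had a log2 fold change of 0.40 (unadjusted p = 0.0187, adjusted p = 0.198), also with no overlap of the groups.

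**Figure D4:**
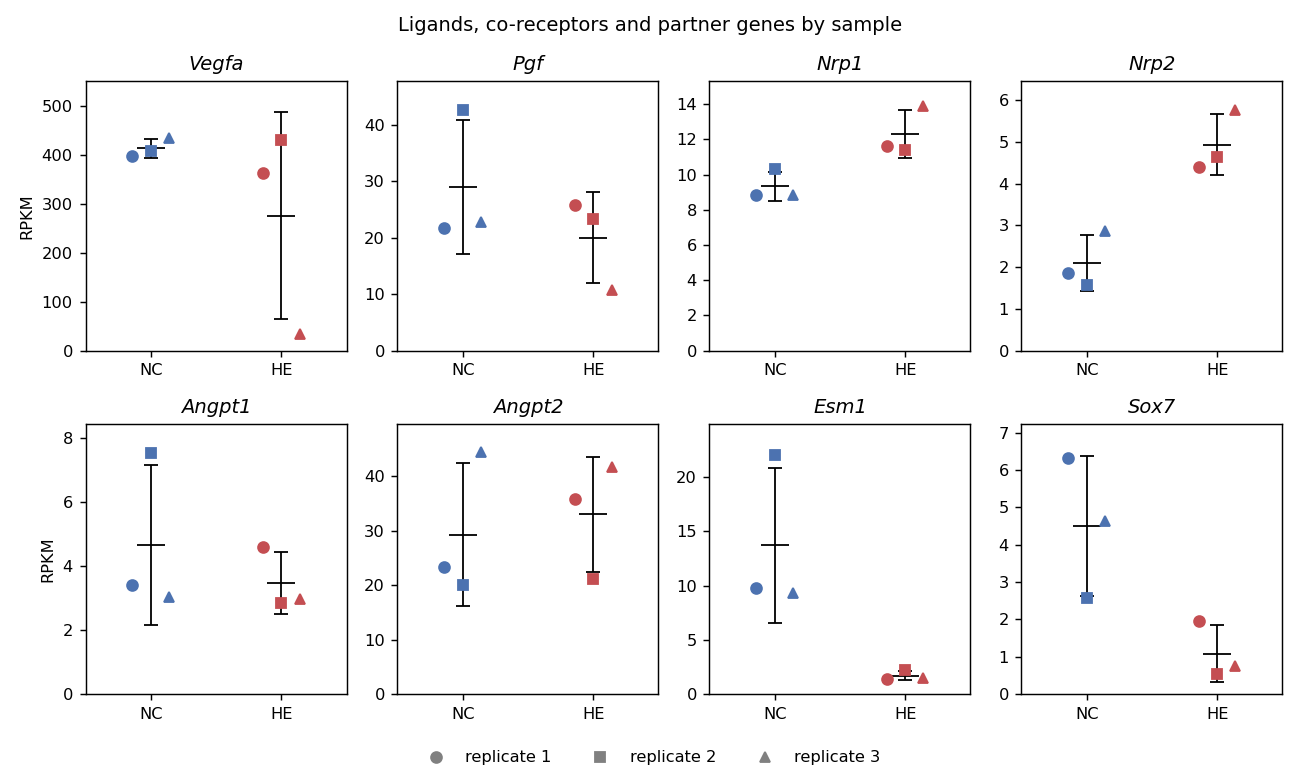
RPKM in the 3 NC (blue) and 3 HE (red) samples of Vegfa, Pgf, the co-receptors Nrp1 and Nrp2, the angiopoietins Angpt1 and Angpt2, the VEGF-responsive gene Esm1 and the transcription factor Sox7, with mean ± SD, each on its own linear axis from 0. Vegfa was at 33.6 RPKM in HE3 and at 364 RPKM or more in the other samples, and Esm1 lay at 1.41 to 2.18 RPKM in HE and 9.34 to 22.0 RPKM in NC.

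Other genes used as endothelial markers were higher or lower in HE. Of 28 genes measured, 21 were tested, 4 were higher (Cd34, Cd93, Ecscr and Calcrl) and 7 lower (Notch4, Dll4, S1pr1, Rasip1, Mmrn2, Esm1 and Sele) with unadjusted p below 0.05, and the median fitted change was 0.13 (log2). Ecscr, with 4, 13 and 6 reads in NC against 12, 13 and 16 in HE, passed the filter only through HE. Over all tested genes, 8.68% were higher and 11.8% lower with unadjusted p below 0.05. Without HE3, 4 of the list were higher (Cd34, Calcrl, Ramp2 and Gja4) and 2 lower (Esm1 and Sele) at this level, against 9.35% and 10.5% of all tested genes. Cd93 and Ecscr were then no longer among the higher ones. Esm1 (endocan), a proteoglycan that VEGF induces in endothelial tip cells, had the largest fitted difference of this list. It was at 9.81, 22.0 and 9.34 RPKM in NC against 1.41, 2.18 and 1.48 RPKM in HE, a log2 fold change of -2.86 (SE 0.35, unadjusted p = 6.74e-05, adjusted p = 0.188 in limma) and of -2.78 without HE3. Every HE sample was thus below every NC sample for Esm1 and above every NC sample for Cdh5.

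Cd93, a C-type lectin-like protein of endothelial and myeloid cells, was at 2.54, 0.923 and 6.02 RPKM in NC against 5.33, 6.24 and 8.96 RPKM in HE, with NC3 inside the HE range (log2 fold change 1.41, adjusted p = 0.241 in limma, and without HE3 1.20 with unadjusted p = 0.116). S1pr1, the most abundant of this list, is also expressed in neural progenitors and astrocytes, and was at 40.3, 27.2 and 36.4 RPKM in NC against 30.7, 21.3 and 23.0 RPKM in HE, with HE1 inside the NC range. Myct1, another endothelial marker, had 0 reads in all 6 samples.

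**Figure D5:**
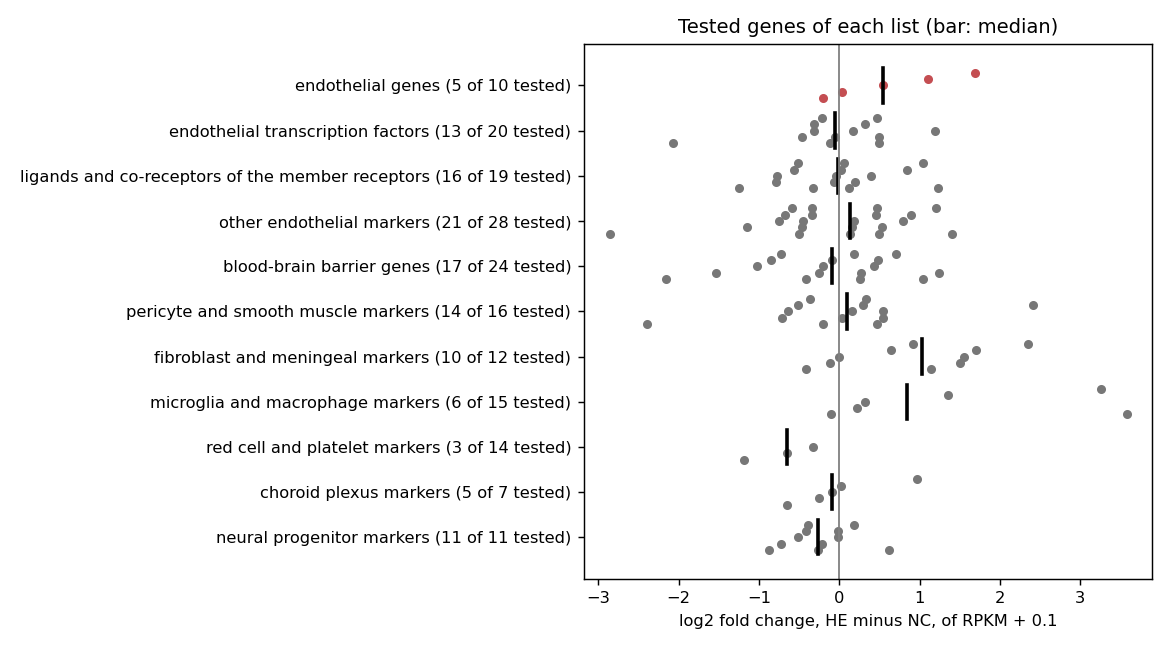
Log2 fold change of RPKM + 0.1, HE minus NC, of every tested gene (point) in each list, with the list median as a bar and the number tested of the number in the table. The 5 tested endothelial genes (red) have a median of 0.55, the lists of endothelial transcription factors, ligands and other endothelial markers have medians of -0.05, -0.01 and 0.13, and the fibroblast and meningeal list has a median of 1.03.

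Some markers of other cells that accompany vessels were higher in HE together with Cdh5, and their part in the result was not tested. Of 10 tested fibroblast and meningeal markers (of 12 in the table), 5 were higher and 0 lower in HE with unadjusted p below 0.05, the median log2 fold change was 1.03, and the list summed to 40.2 to 94.0 RPKM in NC against 84.3 to 190 RPKM in HE. Mgp, Dcn and Col3a1 had log2 fold changes of 2.35, 1.70 and 1.50 (adjusted p = 0.195 each in limma). The most abundant, Col3a1, had all HE samples above all NC samples, but HE3 at 45.7 RPKM was close to NC1 at 43.3 RPKM. This order held for 14.8% of all tested genes. Not all of the list rose, since Foxc1, Pdgfra and Igf2 had log2 fold changes of 0.0, -0.11 and -0.42, the last 0.08 without HE3. Of 16 pericyte and smooth muscle markers 14 were tested, with 1 higher (Vtn, log2 fold change 2.42) and 2 lower (Notch3 and Cnn1, -0.52 and -2.39). No marker of these lists was at 0 reads in all 6 samples. The pericyte list had a median of 0.10 and summed to 101 to 165 RPKM in NC against 70.9 to 158 RPKM in HE, and its most abundant gene, Tagln, was at 44.8 ± 16.7 RPKM in NC against 35.1 ± 13.1 RPKM in HE (SD, n = 3 each). The log2 fold change of Tagln was -0.37, and about 0 without HE3. Without HE3, 7 fibroblast and meningeal markers and 4 pericyte and smooth muscle markers were higher at this level. Over all tested genes, 8.68% were higher and 11.8% lower with unadjusted p below 0.05, and without HE3 9.35% were higher.

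Some markers of microglia and macrophages had higher values in HE. The microglia and macrophage list summed to 2.08 to 3.05 RPKM in NC against 6.63 to 37.1 RPKM in HE, with 3 of 6 tested markers (of 15) higher with unadjusted p below 0.05, 0 lower and a median of 0.84. The 3 were Lyz2, C1qb and Tmem119, whereas Csf1r, Cx3cr1 and P2ry12 overlapped, with log2 fold changes of 0.22, 0.32 and -0.10. Over all tested genes, 8.68% were higher and 11.8% lower with unadjusted p below 0.05. Lyz2 was at 0.794 ± 0.565 RPKM in NC against 12.6 ± 11.6 RPKM in HE, with 9.44, 2.98 and 25.4 RPKM in HE1, HE2 and HE3. C1qb had 2, 0 and 0 reads in NC and 22, 12 and 35 in HE, so that it passed the filter only through HE. Without HE3, 3 markers were higher and 0 lower, against 9.35% and 10.5% of all tested genes, and the list median was 0.78. The log2 fold change of Lyz2 was then 2.83, against 3.58 with HE3. With no filter the list median was 0.34. Of 14 red cell and platelet genes 3 were tested, with 0 higher and 1 lower (Itga2b, 4.94 ± 0.425 RPKM in NC against 2.31 ± 1.07 RPKM in HE, log2 fold change -1.19, and -0.73 without HE3). Among the 11 not tested, Pf4 had 1, 0 and 2 reads in NC against 1, 5 and 17 in HE. The platelet genes Ppbp and Gp9 did not follow it. Ppbp had 1, 0 and 2 reads in NC against 0, 0 and 1 in HE, and Gp9 had 1 read over all 6 samples. The 2 red cell genes Hba-a1 and Hbb-bs had 26 and 25 reads in HE3 and at most 1 in any other sample. Alas2 had a log2 fold change of -0.65 (adjusted p = 0.272), which was also the median of the 3 (-0.36 without HE3), and the list summed to 6.49 to 7.37 RPKM in NC against 4.71 to 7.54 RPKM in HE. The part of these cells in the levels of Esam, Pecam1 and Fli1 was not tested.

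Of 11 neural progenitor markers all were tested, with 0 higher and 1 lower (Prom1, log2 fold change -0.87, unadjusted p = 0.0161) and a median of -0.26, and the list summed to 3100 to 3740 RPKM in NC against 2970 to 4710 RPKM in HE. Msi1 was at 7.50 ± 0.0729 RPKM in NC against 4.84 ± 2.08 RPKM in HE (SD, n = 3 each). Its log2 fold change of -0.73 became -0.32 without HE3. Without HE3, 3 progenitor markers were lower with unadjusted p below 0.05, against 10.5% of all tested genes (11.8% with HE3). Of 7 choroid plexus markers 5 were tested and 0 reached an unadjusted p below 0.05 in limma or the adjusted threshold, with a median of -0.09. Without HE3 this median was 0.60 and Aqp1 was higher (log2 fold change 1.55, unadjusted p = 0.00883, adjusted p = 0.161). The share of all tested genes higher in HE with unadjusted p below 0.05 was 8.68%, and 9.35% without HE3. Ttr varied between 8.21 and 393 RPKM over the HE samples, and its log2 fold change of -0.25 became 1.11 without HE3. Aqp1 and Otx2 had log2 fold changes of 0.97 and -0.65, the latter -0.22 without HE3. The summed RPKM of the 10 endothelial genes, 3.22 to 4.12 in NC and 5.00 to 6.51 in HE, was small beside the progenitor and choroid plexus lists. It was not small beside the microglia and macrophage list in NC (2.08 to 3.05) or the red cell and platelet list in HE (4.71 to 7.54).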

How the data were processed

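The members and gene lists were chosen with earlier results of these data known. The authors filtered reads, aligned them with TopHat2 to mm10 and deposited, per gene, a raw read count and the RPKM they computed from it; counting tool, annotation and strand use are not given in the sources used here, so overlapping or antisense genes could share reads. The deposited RPKM differed from count, length and total by at most 4.99e-07. The deposited counts are written with commas, which were removed on reading. The RPKM values were tested in the main fit, and the counts only in the voom alternative. The DESeq2 test by which the paper called differentially expressed mRNAs was not run here, so the counts of genes called are not like for like.

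Differences used limma 3.58.1 (R 4.3.3) on log2(RPKM + 0.1), its variance prior following the mean level, group as the only term and Benjamini-Hochberg adjustment over 13952 genes that reached, in 3 or more samples, what 10 reads are worth in the median library, and 15 reads in all. The fit was tested on simulated counts with the same relative spread for all genes and no outlying library. That test does not cover a library like HE3. Symbols were found for 21781 of 22048 identifiers. Single means used exact permutation tests (scipy 1.17.1). Each sample pooled 2 mice, and whether samples share litters is not given here, so p-values measure the spread between these samples. Genes named were the 10 members and, per list, the highest mean RPKM and the 2 largest fitted changes among tested genes, plus the 5 genes most like the members; any other gene was named after its values were seen. Alternatives were pseudocount 1, median-of-ratios scaling, other filters, replicate block, voom, sample weights and leaving out each sample; counts of list genes without HE3 were added after seeing the data.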

Additional observations from a re-analysis of the deposited data

How the results depend on the processing

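Cdh5 was higher in HE in all 14 fits, with a log2 fold change of 0.96 (pseudocount 1) to 1.86 and an unadjusted p-value of at most 0.00429, and Esam in all 14 with 0.51 to 1.60 and at most 0.0517. Kdr had 0.22 to 0.81. Adjusted p-values under 0.05 appeared only with sample weights, where HE3 had a weight of 0.158 (Cdh5 0.0333, Esam 0.0259). The number of genes called was 0 as reported, 268 with sample weights and 0 to 103 when each sample was left out, 103 being without NC3. The count of endothelial genes higher at an unadjusted p-value under 0.05 was 1 to 3 and their median 0.28 to 0.81 when a sample was left out, 1 being without NC1, and the median was 0.22 with pseudocount 1. Flt1 turned to 0.06 with sample weights and, when a sample was left out, ranged from -0.40 to 0.03, the latter without NC2. Eng turned to -0.09 without NC3, -0.08 without HE2 and about 0 without NC2 (range -0.09 to 0.19). The causes were not tested. Median-of-ratios scaling kept all 5 directions.

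Whether the replicate numbers pair the samples is not given in the labels. The deviations of same-numbered samples correlated at 0.156, 0.0869 and 0.0603, each sample best with its own number. With the replicate block the number of genes called stayed at 0, 3184 genes against 2858 had an unadjusted p-value under 0.05, and 2 endothelial genes remained higher, with an adjusted p-value of 0.099 for Cdh5. At 0 to 17 reads, depth limits Cldn5, Emcn, Tek, Pecam1 and Tie1.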

Other observations

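Genes that brain endothelium uses for the blood-brain barrier, most of which other cells also use, were higher or lower in HE. Of 24 measured, 17 were tested, and 4 were higher (Abcb1a, Abcg2, Tfrc and Itm2a) and 3 lower (Slco1c1, Lsr and Ocln) in HE with unadjusted p below 0.05 in limma, with 0 past the adjusted threshold and a median log2 fold change of -0.09. Over all tested genes, 8.68% were higher and 11.8% lower with unadjusted p below 0.05. Without HE3 the counts of this list were the same and its median was 0.09. The efflux transporter Abcg2 was at 0.762 ± 0.029 RPKM in NC against 1.71 ± 0.527 RPKM in HE, and Abcb1a at 0.399 ± 0.213 and 1.02 ± 0.272 RPKM (SD, n = 3 each). Ocln (occludin), a tight junction protein that epithelia also carry, was at 3.64 ± 0.327 RPKM (NC) against 1.31 ± 0.747 RPKM (HE), a log2 fold change of -1.54 (adjusted p = 0.195), with HE3 lowest at 0.619 RPKM and a value of -1.13 without HE3. The thyroid hormone transporter Slco1c1, which astrocytes share, had a log2 fold change of -2.16, and -1.55 without HE3. Bsg, the most abundant, was at 927, 1060 and 477 RPKM in HE1, HE2 and HE3 and at 1040 ± 18.7 RPKM in NC.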
